A study of Ovis aries with 8 samples.

Results

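HSPA5, DERL1 and ATF4 encode proteins that act when unfolded protein builds up in the endoplasmic reticulum (ER), and their RNA was measured in the hypothalamus of fetal sheep with and without infused estradiol sulphate. Every probe that the array design names for one of these genes was taken, whatever its signal. The 3 genes, of 984 that the array names, have 5 of its 15008 probes, 2 for HSPA5, 2 for DERL1 and 1 for ATF4. All 5 were well above background on all 8 arrays, and none carried an outlier flag. The genes were chosen because earlier results of the same arrays had shown them higher after estradiol sulphate, so their difference between the groups is given as a description, with no test.

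The study used sheep twins, of which 1 fetus of each set had a mini-pump deliver 1 mg of estradiol-3-sulphate per day into a lateral cerebral ventricle, and the other was the control. The 4 treated and 4 control hypothalami were each hybridised to 1 single-colour array. Surgery was at 120 to 127 days of gestation (about 125 days in the treatment protocol), and tissue was collected at 130 to 134 days. The labels differ on the length of the infusion, 7 to 12 days in the design text and 7 to 10 in the protocol. They also differ on the control fetuses, which the design text calls untreated and the protocol describes as infused with saline vehicle. No genotype, breed or sex is given in the sources used here, and the labels do not say which treated and control samples were twins. The RNA had been stored for 7 years, so the arrays measured archived material.

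The ER folds and modifies proteins bound for membranes and secretion. HSPA5 (BiP, GRP78) is its main Hsp70 chaperone, which binds nascent and misfolded chains and also holds the stress sensors IRE1, PERK and ATF6 inactive. DERL1 is a membrane protein of ER-associated degradation, through which misfolded proteins are passed back to the cytosol for the proteasome. ATF4 is a transcription factor of the integrated stress response, made mainly when phosphorylation of eIF2 alpha lowers general translation, and it raises genes of amino acid supply and, with others, the factor CHOP. ATF4 is set largely by translation of its messenger RNA, which an array does not measure. In the hypothalamus, neurosecretory neurons pass large amounts of peptide precursor through this compartment.

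The probe sequences show what each spot could bind, and which probes of a gene are separate measurements of it. Each probe has 60 bases, and they are written 5′ to 3′ as the scanner files give them. Capitals mark the stretch that both DERL1 probes contain.
HSPA5 probe 1: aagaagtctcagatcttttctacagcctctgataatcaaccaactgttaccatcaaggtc
HSPA5 probe 2: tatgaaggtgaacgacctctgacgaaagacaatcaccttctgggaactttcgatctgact
DERL1 probe 1: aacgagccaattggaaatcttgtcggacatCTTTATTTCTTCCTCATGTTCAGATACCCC
DERL1 probe 2: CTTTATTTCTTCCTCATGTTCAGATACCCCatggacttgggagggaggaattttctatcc
ATF4 probe: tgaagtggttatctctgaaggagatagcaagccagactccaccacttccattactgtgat
By the start positions of the design, HSPA5 probe 1 covers bases 993 to 1052 of its source transcript and probe 2 covers bases 1053 to 1112, so they lie end to end and share no base. The source is a partial coding sequence that the design describes as the 78 kDa glucose-regulated protein. The DERL1 probes cover bases 269 to 328 and 299 to 358 of their source, and the last 30 bases of probe 1 are the first 30 bases of probe 2. They are therefore less separate than the HSPA5 probes. The design lists DERL1 under a locus number and describes it as Der1-like domain family member 1. The ATF4 probe covers bases 624 to 683 of its source and stands alone, so no other probe checks it. GC content ran from 40% to 45% over the 5 probes, against a median of 43.3% over the array. The longest run that any of them shared with a probe of another gene or source on the array was 13 to 14 bases.

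The brightness of the arrays moved with the groups. The 75th percentile of processed intensity was 1584 to 2251 on the treated arrays and 969 to 1609 on the vehicle arrays, so vehicle replicate 1 and treated replicate 4 overlap. On average it was 1.42-fold higher on the treated arrays. A single slide, scanned once, held all 8 arrays. The treated arrays have the first position number 1 on the slide and the vehicle arrays the first position number 2, so position and treatment cannot be told apart. The second position number equals the replicate number in both groups. Across all 11749 probes tested, limma called 0 at a Benjamini-Hochberg adjusted p under 0.05 (smallest adjusted p 0.249), and 1065 (9.06%) had an unadjusted p under 0.05. Because 1 signal per array sums over many kinds of cell, more RNA per cell and more cells of a type cannot be told apart. The summed level of 6 endothelial markers was 1.17 to 2.09 in the treated samples and 0.94 to 1.15 in the vehicle samples, in units of the array's 75th percentile, without overlap. Of these markers 3 were above background on every array, and 2 of the list (FLT1 and EDN1) were higher at an unadjusted p under 0.05 in limma. FLT1 was above background on 4 treated and 0 vehicle arrays, so only the treated group brought it into the test. Over all probes tested 6.03% were higher and 3.03% lower at that threshold. Summed levels overlapped between the groups for 11 markers of hypothalamic neurons (14.2 to 43.7 and 23.0 to 37.9), of which 8 were above background on every array. That sum hides single genes: 3 of the 11 (NPY, AGRP and GHRH) were higher and 1 (NPVF) lower at an unadjusted p under 0.05, and 0 passed adjustment. NPY differed by 1.61 ± 0.42 (SE, limma adjusted p 0.433). The sums also overlapped for 5 astrocyte markers (26.4 to 47.4 and 19.3 to 42.7), 3 of microglia and leukocytes (1.18 to 1.76 and 1.51 to 2.26) and 5 of meninges and fibroblasts (1.93 to 5.79 and 2.11 to 4.33). The same held for 2 choroid plexus markers (0.13 to 6.37 and 0.55 to 0.79) and 6 pituitary markers (18.4 to 28.6 and 15.7 to 30.6), where 1 choroid plexus and 2 pituitary markers were above background on no array. The astrocyte and meningeal sums hide single genes too, as all 5 of each had differences above 0, against 57.5% of all probes. Higher at an unadjusted limma p under 0.05 were SLC1A2 of astrocytes and 3 meningeal markers (COL6A1, COL3A1 and TIMP3), and 0 passed adjustment. After quantile normalization only COL6A1 of these stayed under that threshold. COL6A1 and COL3A1 were above background on 4 treated and 0 vehicle arrays, so only the treated group brought them into the test. Markers of neurons in general and of oligodendrocytes were not analysed here. The part of slide position and of these cell types in the values that follow was not tested, and the effect of brightness is given with the scalings.

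HSPA5, the ER chaperone, was higher in the treated group by both probes. Probe 1 had processed intensities of 3536, 4051, 4409 and 3041 in treated replicates 1 to 4, and of 3117, 2486, 1858 and 1550 in vehicle replicates 1 to 4. Divided by the 75th percentile of each array, on the log2 scale, these became 1.07, 0.99, 0.97 and 0.94 in the treated samples and 0.95, 0.75, 0.52 and 0.68 in the vehicle samples. The treated values lay within a narrow band, and vehicle replicate 1 reached into it, above treated replicate 4. The other 3 vehicle samples were below every treated sample. Group means were 0.99 ± 0.05 (SD, n = 4) and 0.72 ± 0.18 (SD, n = 4). The difference, estradiol sulphate minus vehicle, was 0.27 ± 0.12 (SE) on the log2 scale, which is 1.20-fold.

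HSPA5 probe 2 had processed intensities of 3234, 3912, 4399 and 2647 in the treated samples and 3001, 2279, 1850 and 1225 in the vehicle samples. Relative to the 75th percentile its log2 values were 0.94, 0.94, 0.97 and 0.74 after treatment and 0.90, 0.62, 0.51 and 0.34 with vehicle. Treated replicate 4 lay apart from the other treated samples and below vehicle replicate 1, so 3 of 4 treated samples exceeded every vehicle sample, as with probe 1. Means were 0.90 ± 0.10 and 0.59 ± 0.24 (SD, n = 4 each), a difference of 0.30 ± 0.14 (SE), or 1.23-fold. The abutting probes put the samples in much the same order. Over the 8 arrays their Pearson r was 0.88, a description of 1 RNA read at 2 places. After each probe's mean over the 8 arrays was subtracted, the probes differed by a median of 0.07 log2 units per array and by at most 0.23, in vehicle replicate 4.

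DERL1, of the degradation machinery, had the largest differences of the 3 genes. DERL1 probe 1 gave processed intensities of 557, 781, 676 and 362 in the treated samples and 324, 352, 271 and 177 in the vehicle samples. On the log2 scale relative to the 75th percentile these were -1.60, -1.38, -1.74 and -2.13 after treatment and -2.31, -2.07, -2.26 and -2.45 with vehicle. Treated replicate 4 was the lowest of its group and fell just below vehicle replicate 2, while the other 3 treated samples were above every vehicle sample. Means of -1.71 ± 0.31 and -2.27 ± 0.16 (SD, n = 4 each) differed by 0.56 ± 0.17 (SE), which is 1.47-fold.

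DERL1 probe 2 read 676, 878, 739 and 511 in the treated samples and 382, 383, 333 and 247 in the vehicle samples, as processed intensity. Its log2 values relative to the 75th percentile were -1.32, -1.21, -1.61 and -1.63 after treatment and -2.07, -1.95, -1.96 and -1.97 with vehicle. Here the groups did not overlap: the lowest treated samples, replicates 3 and 4, were above all 4 vehicle samples, which lay close together. The means were -1.44 ± 0.21 and -1.99 ± 0.06 (SD, n = 4 each), and the difference was 0.55 ± 0.13 (SE), or 1.46-fold. The overlapping probes had a Pearson r of 0.92 over the 8 arrays. With each probe's own mean subtracted as before, they differed by a median of 0.13 log2 units per array. This centred gap was largest, 0.22, in treated replicate 4, the sample in which probe 1 overlapped the vehicle range and probe 2 did not.

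ATF4, the transcription factor, had processed intensities of 2023, 2427, 2639 and 1957 in the treated samples and 1876, 1424, 1420.4 and 826 in the vehicle samples. Relative to the 75th percentile the log2 values were 0.26, 0.25, 0.23 and 0.30 after treatment and 0.22, -0.06, 0.13 and -0.23 with vehicle. All 4 treated samples were above all 4 vehicle samples, although treated replicate 3 and vehicle replicate 1 differed by little. Means were 0.26 ± 0.03 and 0.02 ± 0.20 (SD, n = 4 each), a difference of 0.24 ± 0.13 (SE), or 1.18-fold. ATF4 thus had the narrowest treated group of the 5 probes, and vehicle replicates 2 and 4 were its lowest samples. Without vehicle replicate 4 it was 0.16, and without vehicle replicate 1 it was 0.31.

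Groups without overlap, with the treated samples higher, were seen for 2 of the 5 probes, DERL1 probe 2 and the ATF4 probe. Over all probes tested this held for 3.14%, and since the genes were chosen on this contrast nothing is read from the comparison. The spread also differed between the genes. For HSPA5 and ATF4 the vehicle samples varied more than the treated samples, and for DERL1 the treated samples varied more. Vehicle replicate 1 was the highest vehicle sample for HSPA5 and ATF4, but was not so for DERL1, where vehicle replicate 2 was highest on both probes. Treated replicate 4 was the lowest treated sample for HSPA5 and DERL1 and the highest for ATF4.

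**Figure D1:**
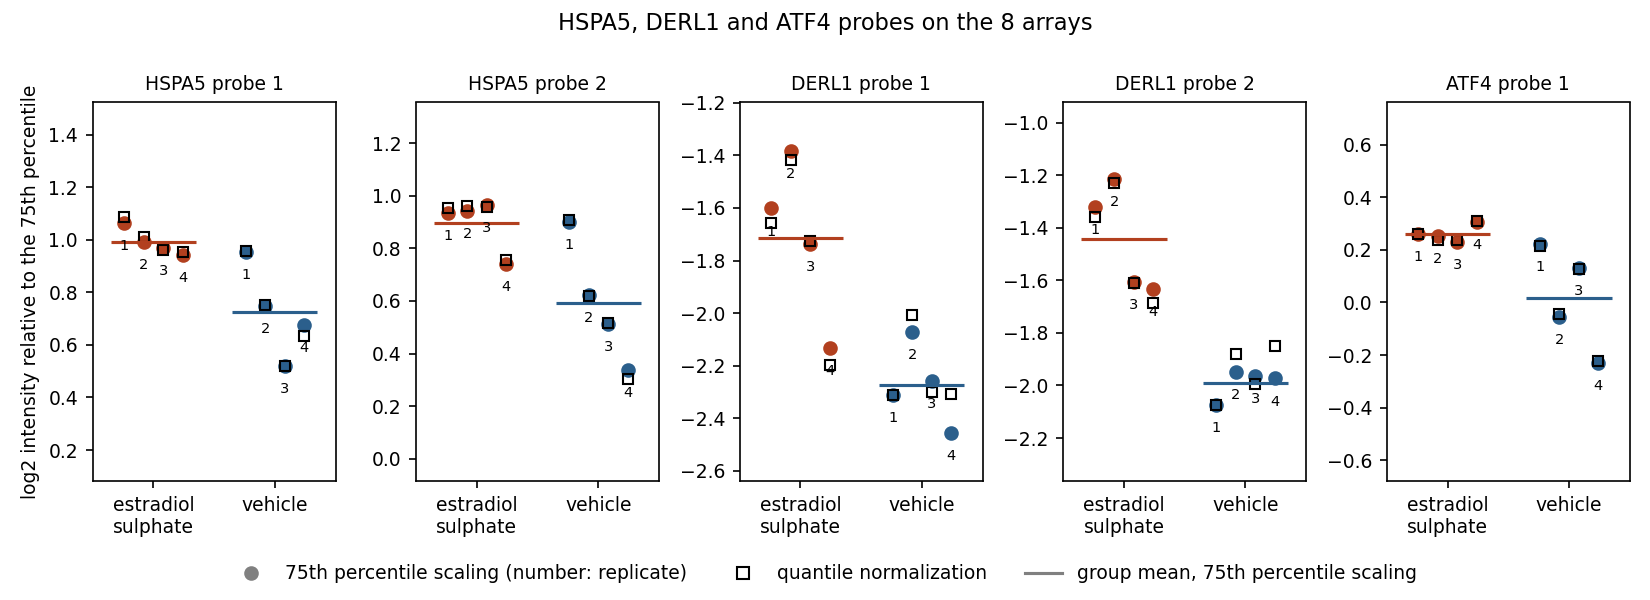
Log2 processed intensity divided by each array's 75th percentile (y axis) for the 5 probes, by group (x axis). Filled circles with their replicate number are single fetuses under 75th percentile scaling, horizontal lines are group means of 4, and open squares are the same samples after quantile normalization. DERL1 probe 2 and the ATF4 probe have all 4 treated samples above all 4 vehicle samples, while for the other 3 probes treated replicate 4 lies below 1 vehicle sample.

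By the 1 probe used for each gene, samples high for one gene were not regularly high for the others within their group. With the brightest probe standing for each gene, Pearson r over the 8 arrays was 0.67 between HSPA5 and DERL1, 0.66 between HSPA5 and ATF4, and 0.57 between DERL1 and ATF4. These values include the difference between the groups for which the genes were chosen. After each group's mean was subtracted, r was -0.02, 0.28 and -0.20 in the same order, and 0.00, 0.36 and -0.51 after quantile normalization. The second probes of HSPA5 and DERL1 were not used, and the values depend on the probe. On HSPA5 probe 2, vehicle replicate 1 was highest of its group and replicate 4 lowest (0.90 and 0.34), as for ATF4 (0.22 and -0.23). Treated replicate 4 was lowest of its group on that probe and highest for ATF4. All are descriptions of 8 arrays that share a slide and a scaling, and none was tested.

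The arrays differed in brightness, and the choice of scaling changed the values. Unscaled, the probes differed between the groups by 1.69-fold (ATF4), 1.71-fold and 1.76-fold (HSPA5), and 2.10-fold and 2.08-fold (DERL1), of which the 1.42-fold difference in the 75th percentile is a common part. Dividing by the 75th percentile assumes that arrays differ by 1 factor, whereas quantile normalization gives every array the same distribution of values. Under 75th percentile scaling the median difference over probes fell with signal, and the cause was not tested. The probes tested were ranked by mean signal and divided into 5 groups of equal size. From the dimmest group to the brightest the median difference was 0.20, 0.10, 0.06, 0.00 and -0.12. After quantile normalization the same groups had medians of 0.02, -0.00, -0.01, -0.00 and -0.01. Both DERL1 probes lie in group 3 from the dimmest, and the HSPA5 and ATF4 probes in group 4, so all 5 are in the range of signal where the scalings differ least.

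After quantile normalization the HSPA5 differences were 0.29 ± 0.12 for probe 1 and 0.32 ± 0.14 for probe 2 (SE), which are 1.22-fold and 1.25-fold. Both were slightly larger than under 75th percentile scaling, by 0.02. For DERL1 they were smaller, 0.48 ± 0.17 for probe 1 and 0.48 ± 0.13 for probe 2 (SE), or 1.40-fold and 1.39-fold. The largest shift of any sample was in vehicle replicate 4, the dimmest array, where quantile normalization raised DERL1 by 0.15 and 0.12 log2 units. The ATF4 difference was 0.24 ± 0.12 (SE), or 1.18-fold, the same to the digits printed. The samples that overlapped were those that overlapped before: DERL1 probe 2 and ATF4 again separated the groups, which held for 1.86% of all probes after quantile normalization.

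The place of these differences among all probes moved with the scaling as well. Under 75th percentile scaling, a larger positive difference was held by 3.90% and 4.16% of the probes tested for DERL1 probes 1 and 2, by 16.4% and 13.6% for HSPA5 probes 1 and 2, and by 18.4% for ATF4. After quantile normalization these shares were 3.41% and 3.53% for DERL1, 9.21% and 7.75% for HSPA5, and 11.9% for ATF4. Since the genes were chosen on this contrast, the shares only describe where they lie and are not a test. Of all probes tested, 57.5% had a difference above 0 under the first scaling and 49.4% under the second.

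**Figure D2:**
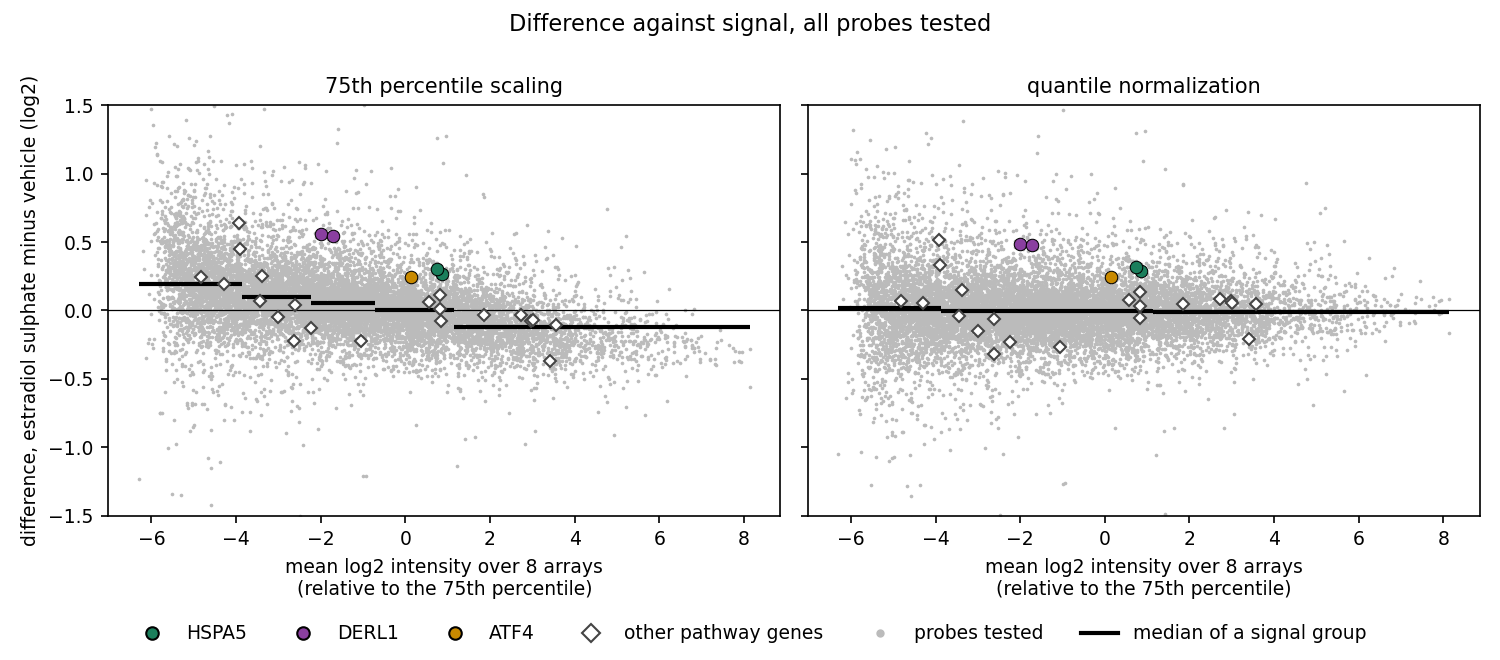
Difference between the groups, estradiol sulphate minus vehicle in log2 units (y axis), against the mean log2 intensity over the 8 arrays (x axis), under 75th percentile scaling (left) and quantile normalization (right). Grey points are the 11749 probes tested, of which 24 on the left and 23 on the right lie outside the range drawn, black bars are the medians of 5 groups ranked by signal, coloured points are the 5 probes, and diamonds are other genes of the pathway lists. The bars slope from 0.20 to -0.12 on the left and lie near 0 on the right, while the coloured points stay above 0 in both panels.

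Of 18 other ways of processing the arrays, 4 (both filters, the replicate block and the trended prior) cannot change these differences. Under the other 14, single samples left out included, all 70 differences of the 5 probes were above 0. HSPA5 probe 1 ran from 0.17 to 0.34 and probe 2 from 0.20 to 0.41, lowest with the authors' deposited log2 values and highest without vehicle replicate 1. DERL1 probe 1 ran from 0.42 to 0.70 and probe 2 from 0.44 to 0.61, lowest with normexp background correction and 75th percentile scaling and highest without treated replicate 4. ATF4 ran from 0.14 with the authors' deposited values to 0.31 without vehicle replicate 1. Median scaling and the authors' deposited values set the median of all probes to -0.06, against 0.04 under 75th percentile scaling. Both settings subtract 1 constant per array, so this downward shift of 0.10 is common to nearly every probe.

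**Figure D3:**
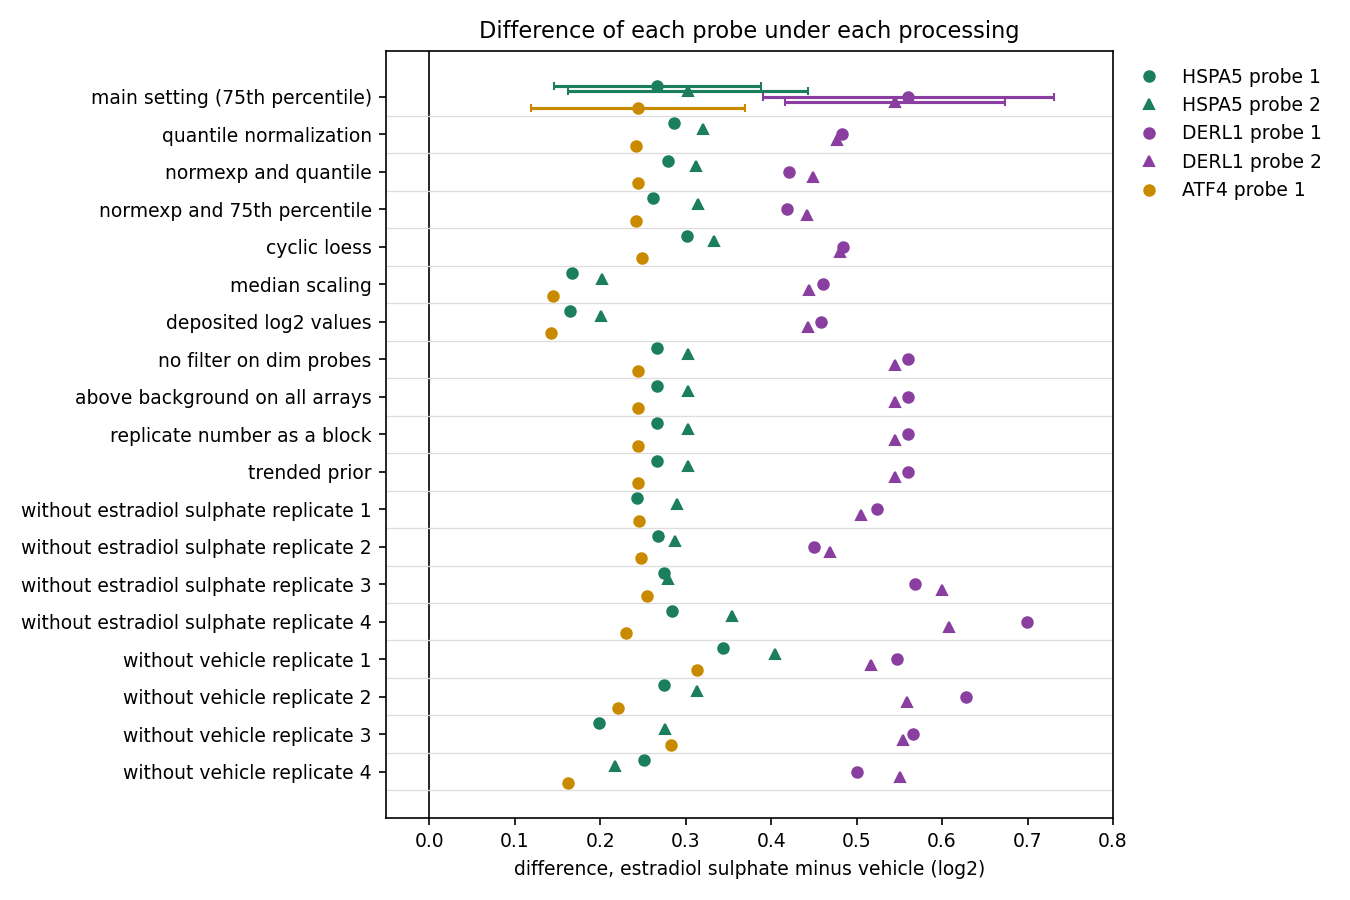
Difference between the groups, estradiol sulphate minus vehicle in log2 units (x axis), for each of the 5 probes under the main setting and 18 alternatives (y axis), 4 of which leave the estimates identical. Points are estimates and the bars at the main setting are standard errors from 4 arrays per group. All points lie above 0, with DERL1 between 0.42 and 0.70 and HSPA5 and ATF4 between 0.14 and 0.41.

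The other genes tested, from 5 lists of the ER stress pathway and 1 of heat shock proteins outside the ER, did not show a common direction. The lists name 31 genes for chaperones and folding, 32 for degradation, 29 for sensors and transcription factors and 41 for ATF4 targets. For translocation and the secretory path they name 42, and for heat shock proteins 27. Tested besides HSPA5, DERL1 and ATF4 were 4, 1, 3, 8, 4 and 3 in that order, so most listed genes were not read. Each counted once, these are 21 genes. Limma called 0 of them at an adjusted p under 0.05 (smallest adjusted p 0.542). At an unadjusted p under 0.05 there were 0 higher and 1 lower, where over all probes tested 6.03% were higher and 3.03% lower. Under 75th percentile scaling 10 of the 21 had a difference above 0, with a median of -0.03, and after quantile normalization 13 did, with a median of 0.05. Without the heat shock list, 10 of 18 were above 0 (median 0.03), and 11 of 18 after quantile normalization (median 0.05). The medians over all probes tested were 0.04 and -0.00.

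Among chaperones and folding enzymes of the ER, the company HSPA5 keeps, 4 other genes were tested and 3 had differences below 0 (median -0.08, and -0.06 after quantile normalization). The protein disulphide isomerase PDIA4 differed by -0.22 ± 0.22 (SE), and the related PDIA5 by 0.04 ± 0.14. ERP29, a folding helper of secretory proteins, differed by -0.07 ± 0.13, and PPIB, the prolyl isomerase cyclophilin B, by -0.08 ± 0.13. None was larger than its standard error under 75th percentile scaling, and PDIA5 and PPIB changed sign under quantile normalization (-0.06 and 0.07). PDIA4 was then further below 0, at -0.32 ± 0.19 (SE, limma unadjusted p 0.128), and ERP29 was at -0.06 ± 0.12. For degradation, DERL1's own branch, the ubiquitin-binding shuttle UBQLN1 was the only other gene tested. Its difference was 0.45 ± 0.27 (SE) under 75th percentile scaling, 0.33 after quantile normalization and -0.02 with normexp and 75th percentile scaling, on a probe in the dimmest of the 5 groups by signal.

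Among sensors and transcription factors, 3 genes besides ATF4 were tested, and all 3 had differences above 0, with a median of 0.07. Each difference was smaller than its standard error, and 57.5% of all probes tested were above 0, with a median of 0.04. XBP1, whose messenger is spliced by IRE1 into the form that encodes an active factor, differed by 0.06 ± 0.14 (SE). Its second probe differed by 0.09, and an array of this kind does not separate the spliced form. DDIT3 (CHOP), the factor induced downstream of ATF4, differed by 0.07 ± 0.13 and by -0.04 after quantile normalization. CEBPB, a partner of these factors, differed by 0.25 ± 0.28. ATF6, the sensor that is cut in the Golgi into an active factor, was well above background on 2 treated and 0 vehicle arrays and was not tested. HSP90B1, CALR, HERPUD1, PDIA3, ERN1, EIF2AK3 and ASNS were not analysed here.

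Of 8 genes listed as targets of ATF4, DDIT3 and CEBPB among them, 6 had differences above 0 and 2 below, with a median of 0.15 that fell to 0.06 after quantile normalization. Of these 6, SLC7A1, SLC7A5 and CEBPB lie in the dimmest of the 5 groups by signal, and MTHFD2 and DDIT3 in the next. In those groups 77.6% and 71.8% of all probes were above 0 under 75th percentile scaling. After quantile normalization 6 of the 8 were again above 0, as were 49.4% of all probes. The amino acid transporter SLC7A1 had the largest difference, 0.64 ± 0.33 (SE, limma adjusted p 0.607), and its second probe differed by 0.62. SLC7A5, which imports large neutral amino acids, differed by 0.19 ± 0.21, and MTHFD2, an enzyme of mitochondrial folate metabolism, by 0.26 ± 0.15. The second MTHFD2 probe differed by 0.01. PSPH, the last step of serine synthesis, went the other way at -0.22 ± 0.14.

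Translocation into the ER and the early secretory path gave 4 tested genes, 1 above 0 and 3 below (median -0.08, and -0.06 after quantile normalization). RPN2, a subunit of the oligosaccharyltransferase that glycosylates nascent chains, was the 1 gene of the 21 at an unadjusted p under 0.05. It differed by -0.37 ± 0.16 (SE, limma unadjusted p 0.043, adjusted p 0.542) and by -0.37 on its second probe. After quantile normalization it differed by -0.21 (limma unadjusted p 0.178), no longer under 0.05. RPN2 lies in the brightest of the 5 groups by signal, where the median difference was -0.12 under 75th percentile scaling. DDOST, of the same enzyme as RPN2, differed by -0.05 ± 0.25. SRP14, of the signal recognition particle, differed by -0.10 ± 0.10, and KDELR2, the receptor that returns ER proteins such as HSPA5, by 0.01 ± 0.14.

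Heat shock proteins of other compartments differed by less than their standard errors. HSPA1A, the inducible cytosolic Hsp70, differed by -0.13 ± 0.54 (SE), HSP90AA1 by -0.07 ± 0.15 and CRYAB by -0.03 ± 0.27. After quantile normalization HSP90AA1 and CRYAB were above 0 (0.05 and 0.08) and HSPA1A was below.

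**Figure D4:**
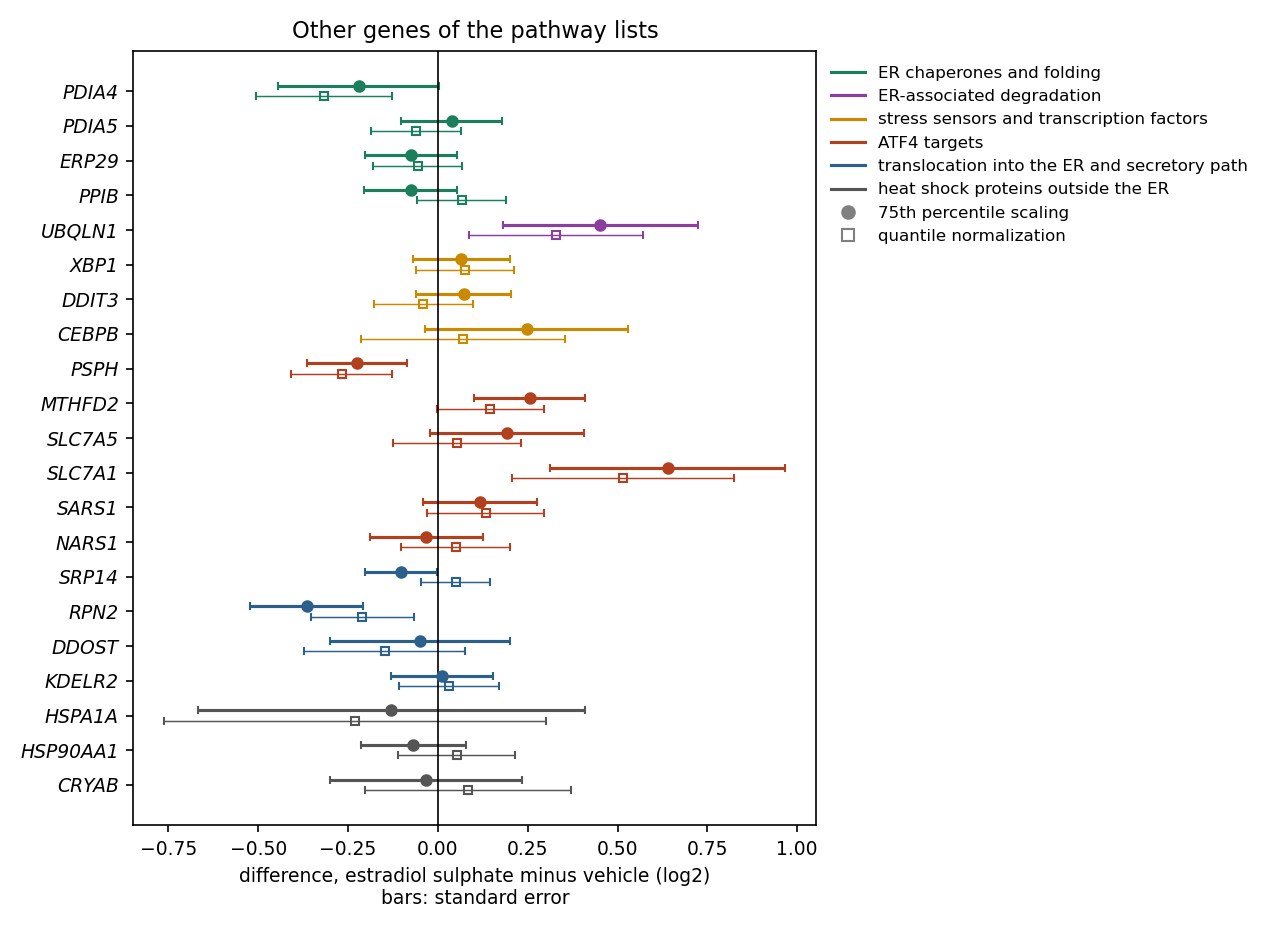
Difference between the groups, estradiol sulphate minus vehicle in log2 units (x axis), for the 21 other genes of 6 pathway lists (y axis), coloured by list, each gene once. Filled circles are 75th percentile scaling, open squares quantile normalization, and bars standard errors from 4 arrays per group. Under 75th percentile scaling 10 points lie above 0, and 0 of the genes passed the adjusted threshold.

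Named genes with the pattern most like each of the 3 across the 8 arrays were taken by Pearson r under 75th percentile scaling, from probes above background on every array. The values are descriptions that include the difference between the groups. Likest to HSPA5 were HCRTR2, an orexin receptor (r 0.92), TIMELESS (0.91), BCAT1, the cytosolic branched-chain aminotransferase (0.90), a locus described as succinate dehydrogenase subunit D (0.90) and the caveolar protein CAV1 (0.86). For DERL1 they were the glutamate receptor subunit GRIA4 (0.93), the glial glutamate transporter SLC1A2 (0.93), the metabotropic glutamate receptor GRM5 (0.91), a probe the design calls NRF-2 (0.91) and the transcription factor YY1 (0.89). For ATF4 they were PUS1, a pseudouridine synthase (0.95), CREM, a cAMP-responsive factor (0.91), the poly(A)-binding protein PABPC1 (0.91), a probe the design calls CLC4 (0.86) and the tight junction protein CLDN3 (0.86). No gene was in more than 1 of these sets. After quantile normalization 5 of the 15 ranked among the 5 likest of the 930 probes searched. That rank counts every probe of a gene, whereas the sets count each gene once, so it is the stricter measure. The r of the 15 was then 0.84 to 0.93 for the sets of HSPA5 and DERL1. Within the set of ATF4 it was 0.93 for PUS1, 0.92 for PABPC1, 0.70 for CREM, 0.76 for CLC4 and 0.75 for CLDN3.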

How the data were processed

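Spots were quantified from single-colour scans by Agilent Feature Extraction 10.1.1.1, per the file headers. The deposited processed intensity has background and spatial trend removed within an array, per the file headers, with no scaling between arrays. Other deposited columns are flags per spot (well above background, saturated, outlier, control); no probe was saturated. The authors also deposited log2 values, which equal log2 processed intensity less a constant for each array in 99.667% or more of probes (tolerance 0.001) and have column medians of 0.0576 to 0.0751. Their scale and direction are therefore known, but not how the constant was chosen.

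After removal of control spots, each log2 processed intensity had the array's 75th percentile subtracted. A probe was tested if well above background on at least 4 of 8 arrays, which kept 11749 and removed 3259. The test was limma 3.58.1 under R 4.3.3 (linear model with empirical Bayes moderation, treatment alone, two-sided, p adjusted by Benjamini-Hochberg across the tested probes), tested on simulated data. Standard errors come from it. Per array, 67.7% to 83.0% of probes were well above background, and 4 arrays a group limit precision. Each fetus was 1 replicate. Design names, updated through RefSeq names of the assembly ARS-UI_Ramb_v3.0 (no coordinates used), covered 1598 probes and left 13410 without one. The brightest probe by mean signal stands for a gene in lists and correlations.

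The genes, the lists and the alternatives (scaling, background correction, filter, prior, replicate block, deposited values, each sample left out) were chosen with earlier results of these data known. Genes named are all probes of the 3 genes, the 4 of smallest p in each list with fixed key genes of the pathway, and the 5 likest to each.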

Additional observations from a re-analysis of the deposited data

Results flagged for a closer look

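In 3 of 48 groups of 4 samples examined, 1 sample lay far from the other 3, judged by its gap to the nearest of them as a share of the group's whole range, past Dixon's critical value for 4 samples. Chance gives such a sample in about 1 in 20 groups. For HSPA5 probe 2, treated replicate 4 was at 0.74 on the log2 scale relative to the 75th percentile, against 0.94 to 0.97 in the other treated samples (share 0.866). The same sample was at 0.94 on HSPA5 probe 1, beside 0.97 to 1.07. For HSP90AA1, vehicle replicate 4 was at 2.72 against 3.12 to 3.18 (share 0.857). For MTHFD2, vehicle replicate 1 was at -3.21 against -3.64 to -3.57 (share 0.844).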

How the results depend on the processing

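All 70 differences of the 5 probes under the 14 alternatives that can change them were above 0. They moved by less than the SD pooled over both groups, though some moved by more than the SD of the tighter group. Since the genes were chosen on this contrast in the same arrays, nothing is read from the shared sign. Leaving out 1 sample gave 0.20 to 0.34 and 0.22 to 0.41 for HSPA5 probes 1 and 2, 0.45 to 0.70 and 0.47 to 0.61 for DERL1, and 0.16 to 0.31 for ATF4. Over all probes, 0 passed the adjusted threshold in any setting run. Equal replicate numbers correlated at 0.24, -0.01, 0.19 and 0.25. Treated replicates 1, 3 and 4 correlated best with the vehicle sample of their own number, and treated replicate 2 with vehicle replicate 4 (0.16). The replicate number is also the second slide position, and the labels do not name the twins, so the numbers were not taken as pairs. A pairing therefore stays possible, and the standard errors given do not include it. With the replicate number as a block, which cannot change a difference of means in this balanced design, 0 probes passed (smallest adjusted p 0.347).

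The 709 probes higher at an unadjusted p under 0.05 became 396 with quantile normalization, 418 with normexp and quantile, 211 with normexp and 75th percentile scaling, 448 with cyclic loess, 344 with median scaling and with the deposited values, 461 with the stricter filter (above background on all arrays), and 466 to 899 without 1 sample (466 without vehicle replicate 2). The 356 lower became 804 (normexp and 75th percentile), 750.0 (median), 760.0 (deposited), 1218 (no filter) and 188 to 392 (188 without treated replicate 2). The 369 higher without overlap became 219, 106, 169 and 169 with quantile, normexp and 75th percentile, median and deposited values, 237 with the stricter filter, and 474 to 794 without 1 sample, where fewer samples overlap less easily. The 325 lower without overlap became 214 (normexp and quantile), 517 (normexp and 75th percentile), 647 (median), 646 (deposited) and 395 to 546 without 1 sample.

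List medians moved to -0.18 for chaperones and for translocation with median scaling and with the deposited values, and for translocation to between -0.20 and -0.028 without 1 sample (-0.20 without vehicle replicate 4). With normexp and 75th percentile scaling they were -0.022 for degradation, -0.18 for sensors and -0.11 for ATF4 targets. That setting moved the median of all probes from 0.04 to -0.08. Genes whose small differences changed sign with quantile, normexp and quantile, and cyclic loess were PPIB (0.066, 0.090, 0.043), SRP14 (0.049, 0.076, 0.040), HSP90AA1 (0.052, 0.051, 0.052) and CRYAB (0.083, 0.095, 0.076, and 0.0079 with normexp and 75th percentile). PDIA5 (-0.061, -0.080, -0.075) and DDIT3 (-0.041, -0.17, -0.12) did so too, and also with normexp and 75th percentile (-0.12, -0.27), median (-0.062, -0.028) and deposited values (-0.064, -0.030). With normexp and 75th percentile UBQLN1 was -0.022, CEBPB -0.18 and SLC7A5 -0.20 (-0.074 with cyclic loess). With median and deposited values XBP1 was -0.036 and -0.037, and KDELR2 -0.088 and -0.090. Without 1 sample, ranges crossed 0 for PPIB (-0.13 to 0.010), PDIA5 (-0.047 to 0.12), CEBPB (-0.0087 to 0.40), XBP1 (-0.027 to 0.12), DDOST (-0.32 to 0.10), KDELR2 (-0.072 to 0.086), HSPA1A (-0.50 to 0.28) and CRYAB (-0.21 to 0.16). Except where a reason is given, the cause of these changes was not tested.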

Other observations

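The array holds a further probe, from an expressed sequence tag without a gene name, that the design assigns to the same transcript cluster as HSPA5 and to a second cluster. It was above background on all 8 arrays. Its difference, estradiol sulphate minus vehicle, was -0.16 ± 0.13 (SE) under 75th percentile scaling (limma unadjusted p 0.260, adjusted p 0.770) and 0.05 ± 0.12 after quantile normalization. Over the 8 arrays its Pearson r with HSPA5 was -0.25. Whether it measures HSPA5 RNA was not tested.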
